A study of Aedes aegypti with 7 samples.

Results

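The miR-12 and miR-283 locus was followed in the fat body of the adult female yellow fever mosquito, Aedes aegypti, before and after a blood meal. Members were chosen by name. They were every mature arm of miR-12, miR-283 and miR-304 in a count table of 124 mature miRNAs, and their precursors in a table of AGO1 CLIP-seq peaks. Of the 124 miRNAs, 3 were members, namely aae-miR-12-5p, aae-miR-12-3p and aae-miR-283, the last listed without an arm. Of 75 precursors with both small RNA reads and AGO1 counts, 2 were members, mir-12 and mir-283, and they held 3 of the 100836 peaks. No row or peak of miR-304 was among those analysed here.

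The mosquitoes were of the UGAL/Rockefeller strain. Fat body small RNA was sequenced 72 h post eclosion (PE, counted from the emergence of the adult), then 6, 24, 36 and 48 h post blood meal (PBM). Each of these 5 times had 3 libraries. AGO1 CLIP-seq, in which ultraviolet light fixes the Argonaute protein AGO1 to the RNA it touches before the protein is precipitated, had 3 libraries from 72 h PE females and 3 from 24 h PBM females. Females of 3 or 4 days were taken as 72 h PE and others of the same cage were then fed, so the later groups are both fed and older, and these cannot be told apart. Every group is fat body tissue of females of this 1 strain, for which the labels name no mutation, transgene or drug. In bulk tissue, fewer cells of a type and less RNA per cell cannot be told apart.

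A miRNA is cut as a short duplex from a hairpin precursor, and one or both strands of the duplex, named the 5p and 3p arms, are kept by an Argonaute protein that they guide to messenger RNAs. Hairpins that lie close together in the genome are called a cluster and can be cut from a common transcript. In Drosophila, mir-12, mir-283 and mir-304 form such a cluster, and in Aedes aegypti miR-12 has been reported to act on transcripts of MCM6, a DNA replication factor, and of MCT1, a monocarboxylate transporter. The fat body is a store of nutrients, and in fed females it supplies the ovary with the yolk protein vitellogenin.

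The small RNA libraries held 8558678 to 29670297 reads, of which 2112431 to 6317980 were miRNA reads. The CLIP libraries held 69424 to 132758 counts in peaks each, of which 14268 to 29398 lay on miRNA precursors. Counts in peaks are not total reads, so the depth of the assays cannot be compared from these figures. In the CLIP table the fat body gene vitellogenin-A1 rose from 191 counts over the 3 libraries at 72 h PE to 6048 at 24 h PBM (log2 change 5.36, edgeR adjusted p = 2.82e-09). The other 3 genes of the fat body list had too few counts to be tested. The vitellogenin genes AAEL006966 and AAEL012311 held 5 and 2 counts at 72 h PE and 4 and 1 at 24 h PBM, and apolipophorin-III, a lipid carrier, held 2 and 7.

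The AGO1 peaks of both precursors lay on the minus strand of supercontig 1.68 of the AaegL3 assembly. The mir-12 peak ran from 2720467 to 2720492 and held 2888 counts over the 6 CLIP libraries. The mir-283 peak ran from 2729393 to 2729418, 8901 bp from the mir-12 peak, and held 1045 counts. The third member peak, from 2729348 to 2729369, was annotated as the star strand on the 3p side of mir-283 and held 1 count. Nearly all AGO1 counts of mir-283 therefore lay on 1 peak, and the other strand of its duplex was close to absent. A precursor outside the rule, mir-1889, had a peak from 2720893 to 2720918, 401 bp from that of mir-12, with 309 counts.

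The protein-coding gene annotated on the same strand around these peaks was AAEL002774, described in the authors' table as slender lobes, putative. Its 9 peaks, of which 7 were in coding exons, 1 in an intron and 1 in the 3′ untranslated region, held 9 counts in all. The intron peak lay between those of mir-1889 and mir-283. AGO1 counts on this stretch were thus almost wholly on the precursors.

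**Figure D1:**
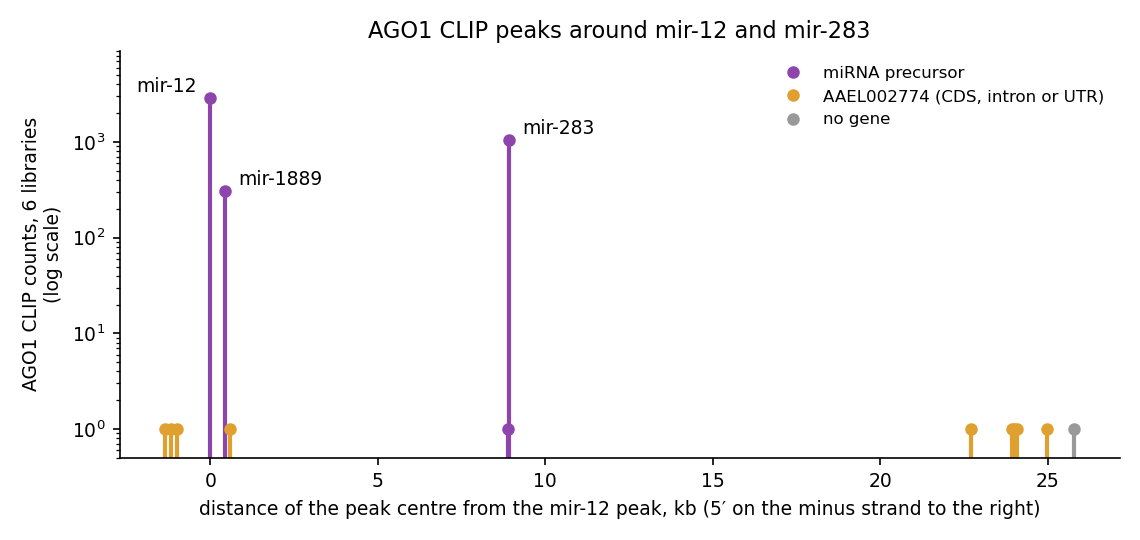
AGO1 CLIP counts of each peak, summed over 6 libraries (vertical axis, log scale), against the distance of its centre from the mir-12 peak in kb (horizontal axis). The peaks of mir-12 (2888 counts), mir-283 (1045) and mir-1889 (309) stand above peaks of 1 count each, among them those of AAEL002774.

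The 3 mature members were kept at very different levels. Over the 15 small RNA libraries miR-12-5p was at 1756 to 3661 counts per 1000000 reads after TMM scaling (CPM), with a median of 2480. It ranked 27 of the 124 miRNAs by mean CPM, between miR-996 (2730) and miR-2c (2465). miR-283 was at 225 to 1011 CPM, with a median of 365, and ranked 52, between miR-316 (479) and miR-308-5p (433). miR-12-3p, the other strand of the miR-12 duplex, was at 51.2 to 106.7 CPM, with a median of 70.2, and ranked 78. The ranges did not overlap, so the order miR-12-5p, miR-283, miR-12-3p held in every library. Together the members made up 0.187% to 0.502% of miRNA reads.

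miR-12-5p, the abundant strand of miR-12, was at 1756, 1904 and 2480 CPM in the libraries of 72 h PE, and at 2509, 2165 and 2854 at 6 h PBM. It was at 1838, 2195 and 2737 CPM at 24 h PBM, at 3534, 2435 and 3195 at 36 h, and at 2166, 2485 and 3661 at 48 h. The libraries of each later time overlapped those of 72 h PE. The highest mean was 3055 ± 563 at 36 h, and the lowest was 2047 ± 383 at 72 h PE (SD, n = 3). The fitted change at 36 h was 0.58 on the log2 scale (SE 0.23, edgeR adjusted p = 0.0871), and those at the other times were 0.14 to 0.44 (adjusted p = 0.173 or more). The test over the 5 times gave an adjusted p of 0.221. Without 72 h PE replicate 3 the change at 36 h was 0.78 (adjusted p = 0.0460). A block for replicate number, which no label states as a pairing, brought 36 h and the 5 times past the threshold, as given below. Scaling to library totals gave 0.82 at 36 h (edgeR adjusted p = 0.0206), 0.81 at 48 h (0.0218) and an adjusted p of 0.0469 over the 5 times. That scaling moved the median change of all miRNAs from 0.04 to 0.31 at 36 h and from 0.04 to 0.43 at 48 h, and the calls from 17 higher and 13 lower to 24 and 4, and from 17 and 11 to 33 and 4. Those on TMM scaling were 26.3% and 24.6% of the 114 miRNAs tested.

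miR-12-3p rose at 6 h PBM. It was at 60.0, 57.4 and 70.2 CPM at 72 h PE and at 106.7, 101.3 and 92.6 at 6 h. The 24 h libraries held 51.2, 55.3 and 81.6 CPM, those of 36 h 70.5, 60.8 and 61.0, and those of 48 h 63.3, 75.0 and 94.1. The 6 h libraries were all above those of 72 h PE, while 24, 36 and 48 h each overlapped 72 h PE. The fitted rise was 0.68 on the log2 scale (SE 0.20, edgeR adjusted p = 0.0420), in a comparison where 12.3% of miRNAs were called and 16.7% were higher without overlap. From 6 to 24 h it fell by 0.68 (SE 0.20, adjusted p = 0.0355), where 14.9% were called. At the later times the change from 72 h PE was 0.0021 to 0.31 (adjusted p = 0.280 or more), or 0.68 at 48 h with library totals (adjusted p = 0.0248).

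The rise of miR-12-3p at 6 h was near the threshold, with 0.61 (edgeR adjusted p = 0.0748) when no filter on low counts was used. Its adjusted p was 0.0620 to 0.173 when any 1 of the 6 libraries other than 72 h PE replicate 3 was left out, with changes of 0.58 to 0.77. The fall from 6 to 24 h was likewise lost without any 1 of those libraries other than 24 h PBM replicate 3 (-0.74 to -0.57, adjusted p = 0.0564 to 0.158), and when only both times were fitted (-0.67, adjusted p = 0.104). The test over the 5 times called miR-12-3p (adjusted p = 0.0398), with 47.4% of miRNAs called. That call was lost without any 1 of 8 libraries, namely 72 h PE replicates 1 and 2, 6 h PBM replicates 1, 2 and 3, 24 h PBM replicates 1 and 2 and 36 h PBM replicate 3 (adjusted p = 0.0502 to 0.0987).

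miR-283 was higher in every library of 24 and 36 h PBM than at 72 h PE, but no change passed the test. It was at 281, 310 and 316 CPM at 72 h PE and at 301, 225 and 365 at 6 h. It was at 356, 520 and 899 CPM at 24 h, at 534, 456 and 489 at 36 h, and at 243, 438 and 1011 at 48 h. The spread was small at 72 h PE and at 36 h and wide at 24 and 48 h, where the SD was 278 and 399 CPM. Among all 114 miRNAs, 24.6% at 24 h and 21.1% at 36 h were higher without overlap.

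The fitted changes of miR-283 from 72 h PE were -0.03, 0.97, 0.70 and 0.90 on the log2 scale at 6, 24, 36 and 48 h PBM, with SE of 0.44 throughout. Their edgeR adjusted p were 0.972, 0.150, 0.273 and 0.145, and that over the 5 times was 0.165. Fitted with only both times, the change at 36 h was 0.67 (adjusted p = 0.0280), and scaling to library totals gave 1.27 at 48 h (0.0357). Without 48 h PBM replicate 1 the change at 48 h was 1.20 (adjusted p = 0.0391). Leaving out 48 h PBM replicate 3 lowered it to 0.17 (adjusted p = 0.795). Without 24 h PBM replicate 3 the change at 24 h was 0.53 (adjusted p = 0.463).

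miRNAs of other tissues also varied between libraries, and only in part alongside these levels. In 48 h PBM replicate 3, where miR-12-5p and miR-283 were highest, the midgut miRNA miR-281-5p made up 21.3% of miRNA reads (95% Wilson interval 21.2% to 21.3%, which covers counting error only). In the other 14 libraries it made up 0.339% to 3.54%. The highest of these were 72 h PE replicate 2 (3.54%) and 36 h PBM replicate 2 (3.50%). There miR-12-5p was at 1904 and 2435 CPM and miR-283 at 310 and 456, neither the highest of its time. The 5 midgut miRNAs summed to 3750 to 38930 CPM at 72 h PE, 6824 to 21426 at 6 h, 5529 to 11638 at 24 h, 4300 to 33499 at 36 h and 3935 to 204869 at 48 h, and of these miR-1175-5p was at 0 in 36 h PBM replicate 1. The 7 miRNAs of ovary and embryo, of which miR-309b-5p was at 0 in every library, summed to 902 to 1576 CPM at 72 h PE and to 11.2 to 16.1 at 6 h. They summed to 3415 to 11643 CPM at 24 h, 9076 to 14251 at 36 h and 5962 to 16883 at 48 h, the times at which miR-283 had its higher means. At 6 h, where they were lowest, the change of miR-283 from 72 h PE was -0.03 on the log2 scale. The 2 muscle miRNAs summed to 416 to 1329 CPM and the 2 neural miRNAs to 13.6 to 67.0 over all libraries. The part of these in the levels of miR-283 and miR-12-5p was not tested.

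**Figure D2:**
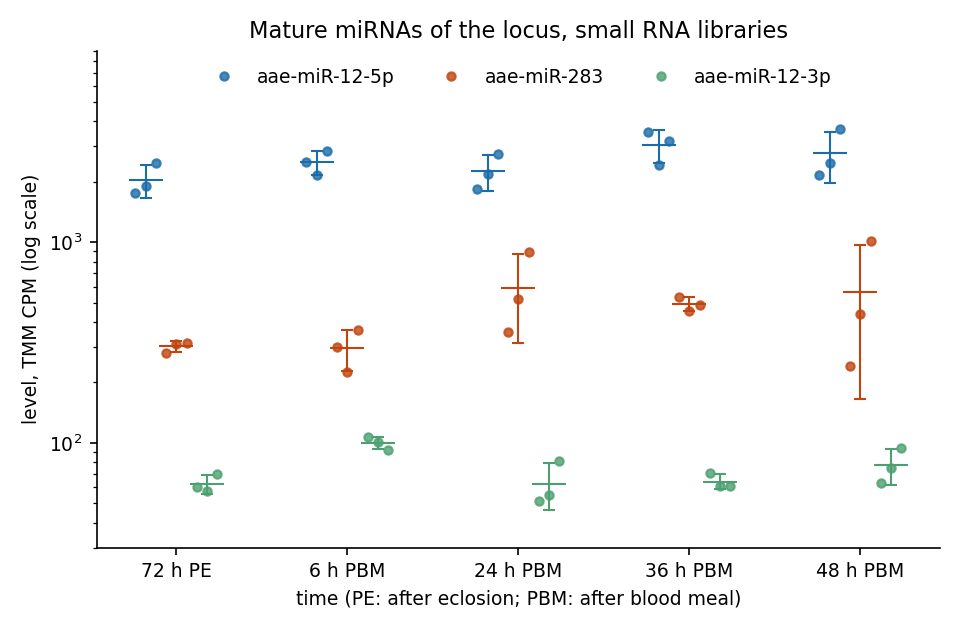
Level of each mature member in TMM CPM (vertical axis, log scale) at the 5 times (horizontal axis), with points for libraries and bars for the mean ± SD of 3. The members form separate bands, and miR-12-3p at 6 h PBM (92.6 to 106.7) lies above its own values at 72 h PE (57.4 to 70.2).

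Over the 5 times the fitted means of miR-12-5p spanned 1.49-fold, those of miR-12-3p 1.60-fold and those of miR-283 1.99-fold. The median span of the 114 miRNAs was 1.94-fold, so the members moved as much as a typical miRNA or less. The neighbouring miR-1889-5p moved further, with a span of 5.60-fold. It was at 107, 131 and 162 CPM at 72 h PE, 310, 409 and 414 at 24 h and 360, 905 and 973 at 36 h. It rose by 1.50 at 24 h (SE 0.40, edgeR adjusted p = 0.0136, called in 23.7%) and by 2.49 at 36 h (SE 0.41, adjusted p = 0.000555, called in 26.3%) on the log2 scale. Without 72 h PE replicate 1 the former was 1.37 (adjusted p = 0.0692).

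The miRNAs whose levels were most like those of the members differed from arm to arm. Across the 15 libraries, and as a description since libraries of one time are not independent of it, the log2 CPM of miR-12-5p followed miR-8-5p (Pearson r = 0.69), miR-283 (0.67) and miR-2944b-3p (0.58). Its lowest r was with miR-988-5p (-0.74). miR-283 followed miR-263a-5p (0.72), miR-12-5p (0.67) and miR-286b (0.64), and its lowest r was also with miR-988-5p (-0.91). miR-12-3p followed the minor arm of the neighbouring hairpin, miR-1889-3p (0.76), then miR-278-5p (0.69) and the midgut miRNA miR-1174 (0.68), and ran opposite to miR-277-3p (-0.68). The arms of miR-12 had an r of 0.46 with each other, and miR-12-3p had one of 0.09 with miR-283. All these levels share the library scaling.

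Ratios within a library do not depend on that scaling. The number of miR-12-5p reads per miR-12-3p read was 29.3, 33.2 and 35.3 at 72 h PE, 23.5, 21.4 and 30.8 at 6 h PBM and 35.9, 39.7 and 33.6 at 24 h. It was 50.1, 40.0 and 52.3 at 36 h and 34.2, 33.1 and 38.9 at 48 h. The mean was highest at 36 h, at 47.5, and the 6 h libraries overlapped 72 h PE. By its mean arm bias mir-12 ranked 20 of the 36 precursors with both arms in the table.

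The arm ratio of miR-12 changed over the 5 times in the joint test (limma adjusted p = 0.0309), with time means 0.92 apart on the log2 scale at the most and 44.4% of the 36 precursors called. No single time differed from 72 h PE at the threshold. The difference was -0.38 at 6 h (SE 0.21, limma adjusted p = 0.250, called in 25.0%) and 0.54 at 36 h (adjusted p = 0.109, called in 16.7%). The joint call was lost without any 1 of 8 libraries, namely 72 h PE replicate 2, 6 h PBM replicates 1 and 2, 24 h PBM replicates 1 and 2, 36 h PBM replicates 1 and 3 and 48 h PBM replicate 2, with spans of 0.81 to 0.92 and adjusted p of 0.0525 to 0.103.

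miR-283 changed against miR-12-5p between 6 and 24 h PBM. The libraries held 0.160, 0.163 and 0.127 miR-283 reads per miR-12-5p read at 72 h PE, 0.120, 0.104 and 0.128 at 6 h and 0.194, 0.237 and 0.328 at 24 h. They held 0.151, 0.187 and 0.153 at 36 h and 0.112, 0.176 and 0.276 at 48 h. The mean was highest at 24 h, at 0.253, and the libraries of 48 h spread over the range of the others. From 6 to 24 h the ratio rose by 1.08 on the log2 scale (SE 0.32, limma adjusted p = 0.0400), where 11.5% of 113 miRNAs were called relative to miR-12-5p.

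That rise was lost without any 1 of the libraries of these times other than 24 h PBM replicate 1 (0.87 to 1.14, adjusted p = 0.0812 to 0.185). Against 72 h PE, the ratio of miR-283 to miR-12-5p was higher by 0.73 at 24 h (SE 0.32, limma adjusted p = 0.159, called in 15.0%), and the differences at the other times were -0.35 to 0.24 (adjusted p = 0.418 or more). Over the 5 times the adjusted p was 0.0975, with 37.2% called. It was 0.0351 without 48 h PBM replicate 1 and 0.0395 without 48 h PBM replicate 3.

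**Figure D3:**
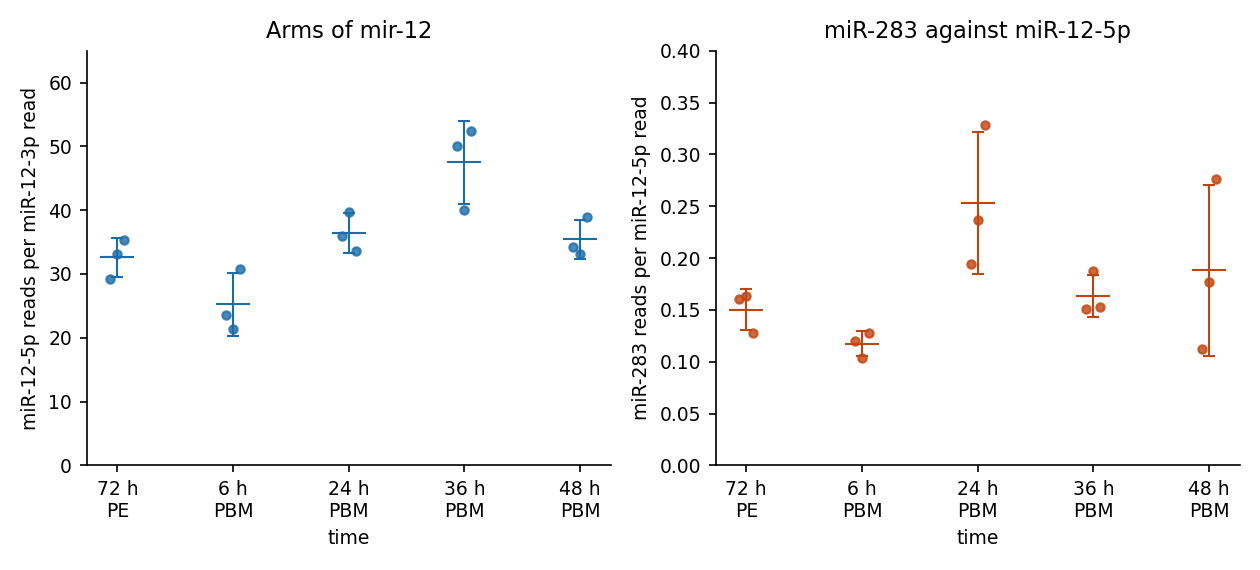
Reads of miR-12-5p per read of miR-12-3p (left) and of miR-283 per read of miR-12-5p (right) in each library at the 5 times, with bars for the mean ± SD of 3. The left ratio is highest at 36 h PBM (40.0 to 52.3), and the right one is at 0.194 to 0.328 at 24 h PBM against 0.104 to 0.128 at 6 h.

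AGO1 CLIP counts of both precursors were compared between 24 h PBM and 72 h PE. The precursor mir-283 held 100, 161 and 110 counts at 72 h PE and 166, 145 and 364 at 24 h PBM. After TMM scaling over all genes and precursors these were 1831, 2049 and 2186 CPM, and 2714, 3585 and 8863 CPM. All libraries of 24 h were above those of 72 h PE on this scale, as for 21.4% of the 687 genes and precursors tested, and replicate 3 of 24 h stood well above the others.

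The fitted rise of mir-283 was 1.32 on the log2 scale (SE 0.38, edgeR adjusted p = 0.0129), in a comparison where 24.6% were called, 90 higher (13.1%) and 79 lower. The call depended on the scaling. With libraries scaled to the sum of all CLIP counts the change was 0.67 (adjusted p = 0.160), and with the sum of precursor counts 0.41 (adjusted p = 0.451). Those scalings moved the median change of all genes and precursors from 0.07 to -0.56 and -0.67, and the calls to 60 higher and 202 lower, and 53 higher and 214 lower. The change of mir-283 stayed above both medians. The call was also lost without 24 h PBM replicate 3 (0.69, adjusted p = 0.179), 72 h PE replicate 2 (1.18, 0.0621) or 72 h PE replicate 3 (1.32, 0.0672), and with single peaks (0.81, 0.111).

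The precursor mir-12 held 431, 503 and 369 counts at 72 h PE and 473, 507 and 605 at 24 h PBM. These were 7890, 6403 and 7333 CPM, and 7732, 12533 and 14732 CPM, so the groups overlapped in 1 library of each. The fitted change was 0.69 on the log2 scale (SE 0.30, edgeR adjusted p = 0.0937). It passed the threshold without 24 h PBM replicate 1 (0.92, adjusted p = 0.0274) or 72 h PE replicate 1 (0.73, 0.0420), and was -0.15 with the sum of precursor counts (adjusted p = 0.733). Over the 50 precursors tested the median change was 0.55, against 0.07 over all 687 genes and precursors. By size of change mir-283 ranked 6 and mir-12 ranked 20 of the 50, of which 8 were called higher and 0 lower.

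Both precursors took a larger share of AGO1 CLIP precursor counts than of small RNA reads. Of the CLIP counts on miRNA precursors, mir-12 took 2.01%, 2.67% and 2.59% at 72 h PE and 1.61%, 2.44% and 2.50% at 24 h PBM. Its arms together took 0.162%, 0.179% and 0.232%, and 0.188%, 0.232% and 0.253%, of the small RNA reads of these precursors. Every CLIP share of mir-12 was above every small RNA share, and the means stood in a ratio of 12.7 at 72 h PE and 9.74 at 24 h PBM.

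The precursor mir-283 took 0.466%, 0.854% and 0.771% of CLIP precursor counts at 72 h PE and 0.565%, 0.699% and 1.50% at 24 h PBM. It took 0.0251%, 0.0283% and 0.0287%, and 0.0354%, 0.0537% and 0.0806%, of small RNA reads. Again no CLIP share came near a small RNA share, with ratios of the means of 25.4 and 16.3. The median ratio of the precursors was 3.89 at 72 h PE and 2.28 at 24 h PBM, and CLIP shares lay above small RNA shares without overlap for 52.0% and 53.3% of the 75 precursors. Mean CLIP shares over both times placed mir-12 at rank 13, between mir-2a (2.48%) and mir-306 (1.96%), and mir-283 at rank 21, between mir-2945 (0.812%) and mir-277 (0.728%). With each time taken singly, mir-12 ranked 11 before feeding and 12 after, and mir-283 ranked 22 and 19.

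**Figure D4:**
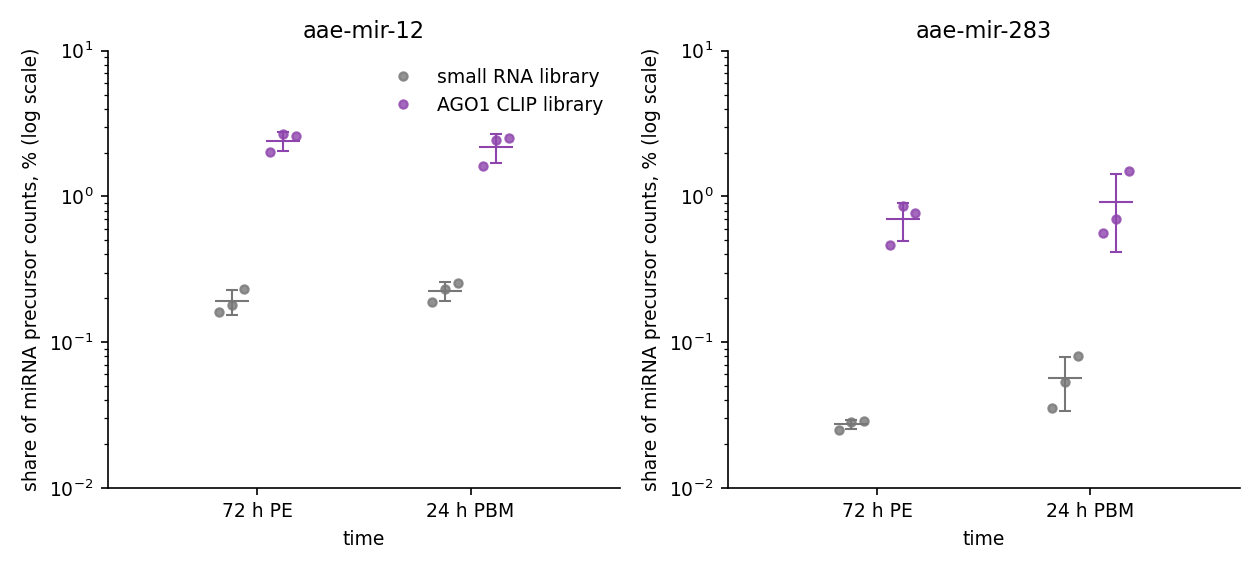
Share of miRNA precursor counts in % (vertical axis, log scale) taken by mir-12 (left) and mir-283 (right) in small RNA libraries (grey) and AGO1 CLIP libraries (purple), before feeding and 24 h PBM, with points for libraries and bars for the mean ± SD of 3. The CLIP shares (1.61% to 2.67% for mir-12, 0.466% to 1.50% for mir-283) lie above all small RNA shares of the same precursor.

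In 1 model over both assays, mir-12 was higher in CLIP than in small RNA by 1.37 on the log2 scale at 72 h PE (SE 0.25, edgeR adjusted p = 0.000193) and by 1.35 at 24 h PBM (adjusted p = 0.000241). The precursor mir-283 was higher by 2.38 (SE 0.40, adjusted p = 0.000109) and 2.05 (SE 0.39, adjusted p = 0.000344). Most precursors differed between the assays, since 83.8% of 74 were called at 72 h PE and 85.1% at 24 h PBM, with 28 higher in CLIP at each time (37.8%) and 34 and 35 lower. The members are therefore among a large group, and their sizes are best read against the medians of all precursors, -0.37 and -0.69. Scaling to the sum of precursor counts raised those medians to 1.94 and 1.26 and the calls to 44 and 40 higher and 18 and 19 lower. It raised mir-12 to 3.66 and 3.28 and mir-283 to 4.67 and 4.03. Both members were called higher at both times in all 6 alternative fits and without any 1 library, with changes of 0.84 to 3.66 and 1.83 to 4.67 over the alternatives. The smallest value without 1 library was 0.68, for mir-12 at 72 h PE. The assays differ in library protocol and in which strands they recover, and the part of these in the differences was not tested.

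The difference between the assays did not itself change detectably with time. From 72 h PE to 24 h PBM it moved by -0.02 for mir-12 (SE 0.35, edgeR adjusted p = 0.953) and by -0.33 for mir-283 (SE 0.54, adjusted p = 0.824), where 5.41% were called. Leaving out 1 library moved these values to between -0.38 and 0.74 for mir-12 and between -0.89 and 0.75 for mir-283, with no call. They were positive for both without any 1 of the 6 small RNA libraries, at 0.54 to 0.74 for mir-12 and 0.19 to 0.75 for mir-283. The scaling itself moved in those fits. Leaving out a small RNA library cut the precursors tested from 74 to 61 or 62 and moved the median difference of all precursors from 0.14 to between 0.80 and 0.97. Both members were below the median in each of these fits, where the sign of their differences moved along with the scaling. The difference of mir-12 was also positive without CLIP 24 h PBM replicate 1, at 0.077, where the median was -0.029.

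**Figure D5:**
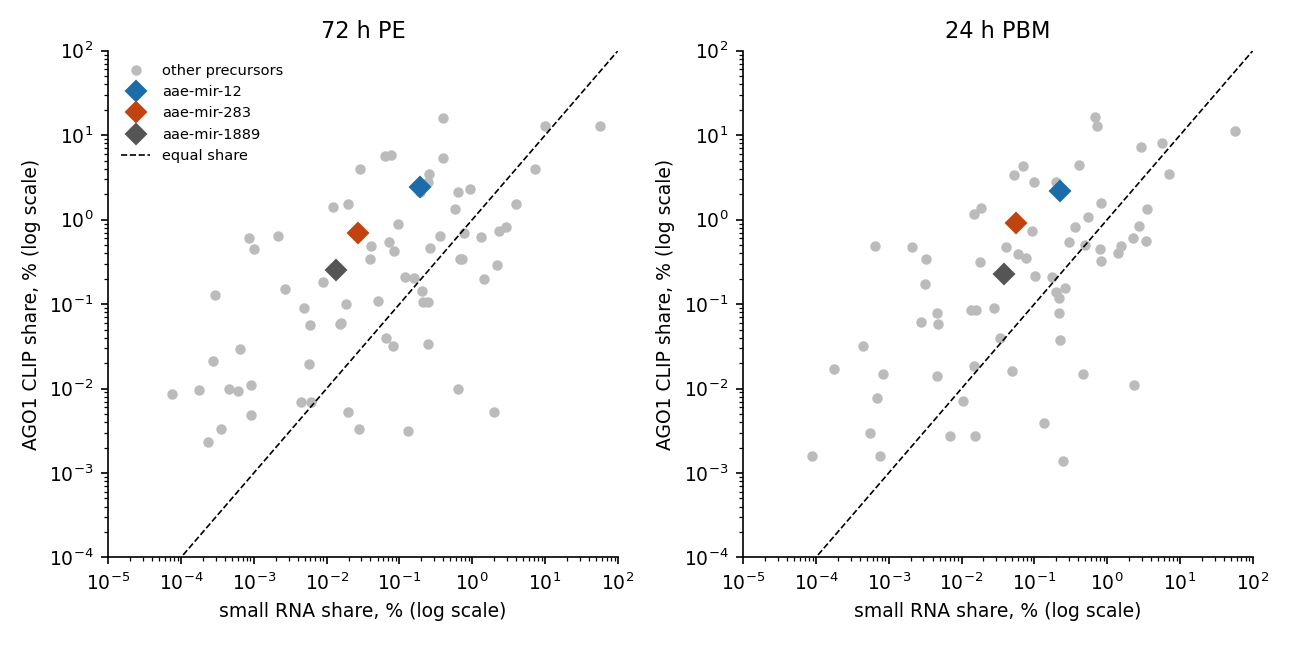
Mean share of AGO1 CLIP precursor counts (vertical axis, %, log scale) against mean share of small RNA reads (horizontal axis, %, log scale) at 72 h PE (left, 73 precursors) and 24 h PBM (right, 71 precursors with counts in both assays), with equal shares on the dashed line. The members mir-12 and mir-283 lie above the line at both times, as do many other precursors.

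Within the locus the balance of the members differed between the assays. In small RNA libraries the reads of mir-283 per read of mir-12, both arms counted, were 0.155, 0.158 and 0.124 at 72 h PE and 0.189, 0.231 and 0.319 at 24 h PBM. In CLIP libraries they were 0.232, 0.320 and 0.298, and 0.351, 0.286 and 0.602. At 72 h PE all CLIP libraries were above all small RNA libraries, and at 24 h PBM 1 of each overlapped. The ratio was 1.78-fold higher in CLIP over both times, a log2 difference of 0.83, with a two-sided exact permutation p of 0.01 over 400 arrangements of libraries within time, where the smallest possible is 0.005. Within 72 h PE alone the log2 difference was 0.96 (exact permutation p = 0.1) and within 24 h PBM alone 0.71 (exact p = 0.2), where 20 arrangements allow no p below 0.1. Leaving out any 1 of the 12 libraries gave 0.68 to 0.95 (exact permutation p = 0.01 to 0.02). Between the assays 83.8% and 85.1% of 74 precursors were called. Their log2 values of CLIP over small RNA ran from -12.5 (mir-2941, without CLIP counts) to 7.12 (mir-965) at 72 h PE. At 24 h PBM they ran from -12.7 (mir-1891, without CLIP counts) to 7.57 (mir-965). Other pairs of precursors were not tested, so the difference cannot be called particular to this locus. The part of library protocol was not tested.

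Between the times, the ratio of mir-283 to mir-12 was higher at 24 h PBM than at 72 h PE by 0.73 on the log2 scale in small RNA (exact permutation p = 0.1, the smallest possible) and by 0.48 in CLIP (exact permutation p = 0.3). These 2 comparisons and the 3 between assays were the 5 main permutation tests of this ratio, and their p were not adjusted for that number. The small RNA comparison is not a further result beside the limma fits of miR-283 against miR-12-5p. With both arms of miR-12 as reference, those fits gave the same 0.73 at 24 h PBM. Library number 3 of 24 h PBM had the highest ratio in both assays.

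With mir-1889 counted in, the most abundant precursor of the locus held 14.1 times the small RNA share of the least abundant at 72 h PE and 5.88 times at 24 h PBM. In CLIP the figures were 9.52 and 9.73. In the mir-275 and mir-305 cluster they were 3.32 and 4.28 in small RNA and 1.01 and 2.25 in CLIP, and in the mir-277, mir-34 and mir-317 cluster 5.55 and 6.39 in small RNA and 3019 and 1181 in CLIP. The last 2 figures rest on very few counts, since mir-317 took only 0.0053% and 0.0109% of CLIP precursor counts, and their size is not reliable. The members of these clusters were thus closest in the CLIP libraries of mir-275 and mir-305, and the differences between clusters were not tested.

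Reported targets and the miRNA pathway were thinly covered by AGO1 counts. MCM6 (AAEL012546) held 13 counts in all, 5 at 72 h PE and 8 at 24 h PBM. The 12 genes described as monocarboxylate transporters held 1 to 44 counts each, and none of these 13 genes passed the filter on low counts. Which of the 12 corresponds to MCT1 is not given in the table. Of 6 genes matched by description to the miRNA pathway only AAEL006794 passed the filter. The table describes both AAEL006794 and AAEL001612 as dicer-1, but in Aedes aegypti AAEL006794 is known as Dicer-2, which acts on double-stranded RNA in the siRNA pathway. AAEL001612 held 6 counts at 72 h PE and 8 at 24 h PBM and was not tested. AAEL006794 held 23 counts at 72 h PE and 52 at 24 h PBM, and rose by 1.53 on the log2 scale (edgeR adjusted p = 0.0307, called in 24.6% of features).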

How the data were processed

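Small RNA libraries, built with a TruSeq kit per the labels' protocols, gave a deposited table of raw read counts of 124 mature miRNAs of miRBase release 21. The authors also deposited the same counts as RPM, reads per 1000000 total reads, which equal the count times 1 constant per library and were used for library totals. AGO1 CLIP-seq tissue was irradiated with 900 mJ/cm2, per the labels' protocols, and the deposited table holds raw counts for 1 peak set common to the 6 libraries on AaegL3 supercontigs, per the column explanations deposited with it, which do not say whether positions start at 0 or 1. Tools named without roles, per the submitters' processing notes, were R 3.1.2, bedtools 2.17.0, Bowtie2 2.2.3 and TopHat2 2.0.14. The peak finder's settings are unknown here. A table of predicted miRNAs was not used here.

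Replicates are the columns numbered 1 to 3 at each time, which the series' design text calls independent biological ones. No label ties a number to a cage. Counts of all peaks on 1 gene or precursor were added up. Peaks with neither held 30.7% of CLIP counts and were left out. In R 4.3.3, edgeR 4.0.16 tested counts (TMM, filterByExpr, robust quasi-likelihood F test), with Benjamini-Hochberg adjustment at 0.05 over all features of each comparison. All tests are two-sided, and n = 3 throughout. Ratios within libraries, with 0.5 added to counts, were tested with limma 3.58.1, and the ratio of both members between assays with an exact permutation test. To compare assays, small RNA arms were summed per precursor and CLIP suffixes and copy numbers were dropped, which matched 75 precursors. DESeq2 1.42.0, limma, other scalings and filters, pseudocount 5, a replicate block and the removal of each library were tried as alternatives. The fits were tested on simulated data.

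Named were all members, peaks within 2 kb of a member peak, neighbours in abundance, the 3 miRNAs most like each arm and the 1 least like it, comparison clusters, and lists of pathway, target and marker genes matched on the authors' descriptions. Members and lists were chosen with earlier results of these data known. No sequence is printed.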

Additional observations from a re-analysis of the deposited data

Results flagged for a closer look

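One result was singled out because, among mir-12, mir-283 and mir-1889, it alone passed the threshold in the test of a difference between groups. For aae-mir-1889, the neighbour of mir-12, the log2 excess of CLIP over small RNA was 1.93 at 72 h PE and 0.58 at 24 h PBM, a difference of -1.34 (SE 0.28, edgeR adjusted p = 0.00870), where 5.41% of 74 precursors were called. Its small RNA share was 0.0135% ± 0.00285 at 72 h PE and 0.0381% ± 0.00597 at 24 h PBM, and its CLIP share 0.254% ± 0.0267 and 0.224% ± 0.0364 (SD, n = 3). The call was lost, with the same sign, without small RNA libraries 72 h PE replicate 1 (-0.62, adjusted p = 0.113), 72 h PE replicate 2 (-0.75, 0.0693), 24 h PBM replicate 2 (-0.54, 0.112) or 24 h PBM replicate 3 (-0.65, 0.0982), and the median difference of all precursors, 0.14 with all libraries, moved to between 0.80 and 0.95 in these 4 fits as the scaling shifted. The call held in all 6 alternative fits (-1.67 to -1.12, adjusted p up to 0.0395). The excess at 24 h PBM alone (edgeR adjusted p = 0.0136) lost its call without any 1 of the 3 CLIP libraries of that time (0.55 to 0.60, adjusted p = 0.0522 to 0.0680). Over the 6 alternative fits that excess was 0.29 to 2.56, with adjusted p up to 0.185. Neither member showed a difference between the times at the threshold. Groups of 3 libraries were not searched for single outlying values.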

How the results depend on the processing

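Changes are on the log2 scale, with adjusted p in parentheses. With library totals the change in abundance of miR-12-5p was 0.82 at 36 h (0.0206) and over the times (0.0469) and 0.81 at 48 h (0.0218). With miRNA sums without TMM these were 0.74 (0.0216), 0.74 (0.0426) and 0.72 (0.0274). With limma on RPM they were 0.83 (0.0199), 0.83 (0.0502, not past the threshold) and 0.80 (0.0215). Under the same 3 scalings miR-12-3p rose at 48 h by 0.68, 0.60 and 0.64 and miR-283 turned positive at 6 h with 0.19, 0.14 and 0.16, while miR-283 at 48 h passed with the first 2 (1.27 and 1.17). With only both compared times miR-283 was 0.050 at 6 h and 0.67 (0.0280) at 36 h, and miR-12-3p was -0.10 at 24 h and -0.67 (0.104) from 6 to 24 h, so that fall lost its call. Without a filter on low counts miR-12-3p at 6 h was 0.61 (0.0748). Values near 0 changed sign, namely miR-12-3p at 24 h with DESeq2 (-0.054), no filter (-0.16) and a 10 CPM filter (-0.15), miR-12-3p at 36 h with the last 2 (-0.060 and -0.063) and miR-12-5p at 24 h with them (-0.0040 and -0.0028).

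The AGO1 CLIP change of mir-283 was 0.67, 0.41 and 0.81 with all counts, precursor counts and single peaks, and that of mir-12 -0.15 with precursor counts. CLIP calls went from 169 to 262, 267 and 351 under these 3. The difference of mir-12 between assays over time was 0.0047 with the more abundant arm and 0.21 without miR-8, which raised its calls from 4 to 8. From 6 to 24 h, 17 of 114 miRNAs were called, against 26 of 123 with DESeq2 and 19 of 123 with edgeR without a filter. DESeq2 was fitted without a filter on low counts, but its default filter at the adjustment of p was left on. The ratio of the precursors between assays was 0.96 and 0.71 at each time alone, where p cannot go below 0.1.

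With the replicate block miR-12-5p passed at 36 h and over the times (0.59, adjusted p = 0.0130 and 0.0461) and miR-12-3p at 24 h was -0.0099. Calls at 6, 24, 36 and 48 h were then 17, 33, 44 and 42, over the times 68 and in CLIP 204, and no other change in call of a member was seen. Deviations from the group means correlated at -0.74 to 0.55 (median 0.32) in 30 same-numbered small RNA pairs, against a median of -0.13 in 60 pairs of different number. In CLIP they correlated at 0.025 to 0.15 (median 0.14) in 3 same-numbered pairs, against -0.05 in 6 others. In small RNA 13 of 15 libraries, and in CLIP 5 of 6, correlated best with their own number, a hint of shared numbers in the data. No label states a pairing and not every same-numbered pair was above 0.1, so the fits without the block were kept.

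Leaving out 1 library gave, for miR-12-3p, 0.58 to 0.82 at 6 h, -0.23 to 0.14 at 24 h, -0.18 to 0.17 at 36 h, 0.67 to 0.91 over the times and -0.91 to -0.57 from 6 to 24 h. It gave -0.022 to 0.34 at 24 h and 0.46 to 0.78 at 36 h for miR-12-5p, and -0.16 to 0.14 at 6 h and 0.17 to 1.20 at 48 h for miR-283. The arm ratio over the times was 0.81 to 1.07, miR-283 against miR-12-5p 0.87 to 1.26 from 6 to 24 h and over the times and -0.086 to 0.56 at 48 h. The CLIP change was 0.48 to 0.92 for mir-12 and 0.69 to 1.61 for mir-283, and the difference between assays over time -0.38 to 0.74 and -0.89 to 0.75. The cause was not tested, beyond the shift in scaling given for the last. Of all other settings tried, 203 values kept direction and call, 16 reversed, 16 gained and 8 lost a call. Low counts limit the CLIP values of genes, most of which fell under the filter.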
